A study of Mus musculus with 23 samples.

Results

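The Peg3 imprinted domain of mouse chromosome 7 was examined through 4 genes, Peg3, Usp29, Peg3os and Zim1, which are the rows of these symbols among the 26183 gene symbols of the count tables. RNA-seq libraries were made from single E13.5 embryos that had the imprint-maintaining zinc finger protein ZFP57 from both oocyte and embryo, lacked it from the oocyte alone or lacked it from both, and the question was how expression of imprinted genes depends on each source and on sex. All embryos were 129/DBA hybrids, from Zfp57 +/- or -/- mothers of the 129 strain and Zfp57 +/- (DBA*) fathers mainly of the DBA/2J background. M+Z+ embryos had maternal and zygotic Zfp57 (6 female, 4 male), M-Z+ embryos had no Zfp57 in the oocyte but a functional paternal copy (3 female, 3 male), and M-Z- embryos (Zfp57-/-) had neither (4 female, 3 male). Zfp57-/+ is the genotype in the titles of both the M+Z+ and the M-Z+ samples. Since only 129 mothers and DBA fathers were used, a maternal allele is always a 129 allele, so that parent of origin and strain cannot be told apart for any gene here.

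In an imprinted domain, DNA methylation placed in the germ line of 1 parent marks an imprinting control region, and the genes around it are then read from 1 parental allele. The control region of the Peg3 domain carries its methylation on the maternal copy and covers the start of Peg3 and its first intron. ZFP57 binds a methylated hexanucleotide and keeps such methylation through early development. Peg3 encodes a large zinc finger protein and Usp29 a deubiquitinase, and both are expressed from the paternal allele; Peg3os is a transcript antisense to Peg3. Zim1, a zinc finger gene next to Peg3, is expressed from the maternal allele.

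On the mm9 build, as the count tables give it, Zim1 lies on the minus strand at chr7:6628154-6649143 and Peg3 on the minus strand at chr7:6658671-6683130. Usp29 lies on the plus strand at chr7:6683294-6919930, with 163 bases between its start and that of Peg3. Peg3os, on the plus strand at chr7:6659471-6660335, lies wholly inside an exon of Peg3 of 5772 bases (chr7:6658671-6664442). The reference sequences of 3 stretches are shown because they hold the shared start of Peg3 and Usp29, the nearby intron of Peg3 with its cluster of motifs, and the start of Zim1, the gene that changed the other way. Each has 300 bases on the minus strand, and capitals mark TGCCGC (the letters of the ZFP57 hexanucleotide) and ATGGCG (the core of the YY1 motif), searched on both strands.
Peg3-Usp29 shared start region, chr7:6683081-6683380: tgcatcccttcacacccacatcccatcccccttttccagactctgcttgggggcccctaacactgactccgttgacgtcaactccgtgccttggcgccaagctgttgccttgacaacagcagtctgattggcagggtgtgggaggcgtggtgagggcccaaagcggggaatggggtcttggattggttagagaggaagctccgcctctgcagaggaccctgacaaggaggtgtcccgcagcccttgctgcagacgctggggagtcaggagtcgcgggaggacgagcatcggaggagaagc
Peg3 first intron window, chr7:6682151-6682450: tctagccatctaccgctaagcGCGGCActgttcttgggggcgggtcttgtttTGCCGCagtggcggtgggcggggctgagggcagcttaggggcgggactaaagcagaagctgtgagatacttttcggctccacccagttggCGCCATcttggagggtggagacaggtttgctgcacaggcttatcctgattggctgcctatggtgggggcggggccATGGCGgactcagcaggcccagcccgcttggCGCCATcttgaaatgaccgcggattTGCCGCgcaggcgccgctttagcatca
Zim1 promoter, chr7:6649094-6649393: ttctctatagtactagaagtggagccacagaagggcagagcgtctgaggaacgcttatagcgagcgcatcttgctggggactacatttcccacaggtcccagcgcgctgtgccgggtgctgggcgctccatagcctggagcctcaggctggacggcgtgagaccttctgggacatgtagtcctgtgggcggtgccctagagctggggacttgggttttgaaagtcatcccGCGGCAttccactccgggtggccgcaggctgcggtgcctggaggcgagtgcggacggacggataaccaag

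The shared start region held 0 matches of TGCCGC and 0 of ATGGCG among its 13 CpG sites. Of the 26000 windows of this length at gene starts, 3507 held TGCCGC and 2677 (10.3%) ATGGCG. The window in the first intron of Peg3, which was picked as the one with the most matches in the first 2000 bases of the gene, held 3 of each and 20 CpG sites. Those first 2000 bases of Peg3 held 8 matches of TGCCGC, a number that 0.0962% of gene starts reach, and 6 of ATGGCG, which 0.0192% reach, while 37.4% and 31.9% of gene starts hold any. Matches of the 2 motifs did not overlap. The first 2000 bases of Usp29 and of Zim1 held 0 matches of TGCCGC, and the Zim1 promoter window held 1. These are matches of letters in a window and were not tested for binding.

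Each embryo had 15155251 to 24078410 counts in all, and 2460255 to 3944998 reads could be assigned to a parental allele. Peg3 had 12829 to 32869 counts per embryo, Usp29 770 to 2261, Zim1 27 to 2344 and Peg3os 22 to 152, so that Peg3os had few counts in every embryo and Zim1 in some. Zfp57 itself fell from 66.9 ± 17 CPM (counts of a gene over the embryo's total, times 1000000; mean ± SD) in female M+Z+ (n = 6) to 33.1 ± 0.856 in female M-Z- embryos (n = 4; log2 fold change -1.02, adjusted p = 3.99e-04). The male levels were 76.5 ± 9.90 CPM in M+Z+ (n = 4) and 29.7 ± 5.03 CPM in M-Z- embryos (n = 3; log2 fold change -1.33, adjusted p = 4.69e-05). Counts of Zfp57 thus remained in M-Z- embryos of both sexes. They are counts over the whole gene, in which a deleted part cannot be read apart. Adjusted p-values of expression and of allele reads are from edgeR's quasi-likelihood test with Benjamini-Hochberg adjustment over all tested genes, and to be called a gene needed an adjusted p below 0.05 and a log2 fold change of 0.5 or more, up or down. Of 25 markers of neural, muscle, liver, erythroid and cartilage cells, edgeR called 0 between M-Z- and M+Z+ embryos of either sex and DESeq2 called 0 in females and 1, Hbb-bh1, in males, while 14 in females and 7 in males had an unadjusted p below 0.05, which 15.5% and 17% of all tested genes had. The 5 liver markers had the lowest median of these lists (log2 -0.56 in females and -0.75 in males). Their summed level was 3155 to 6779 CPM in female M+Z+ and 2366 to 3868 CPM in female M-Z- embryos, which overlap. In males it was 4433 to 6421 CPM in M+Z+ and 1627 to 4225 CPM in M-Z- embryos, without overlap. The 5 neural markers summed to 1262 to 1491 CPM in female M+Z+ and 1123 to 1248 CPM in female M-Z- embryos, and to 1221 to 1346 and 1145 to 1218 CPM in the males, without overlap in either sex. The erythroid sum did not overlap in males (949 to 1431 CPM in M+Z+ and 1557 to 2701 CPM in M-Z-) and did in females. The median log2 fold change of the 5 erythroid markers was 0.003 in males and -0.38 in females, so that the male sum rose without a rise in the median. The sums of muscle and of cartilage markers overlapped in both sexes. Among single tested genes, CPM did not overlap for 4.29% in females and 10.8% in males. The part of these markers in the results below was not tested. The 6 trophoblast markers were below the filter, with a summed level of at most 0.428 CPM.

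Peg3, Usp29 and Peg3os rose in M-Z- embryos of both sexes while Zim1 fell. Against M+Z+ embryos 4 and above only, the Peg3os call held in neither sex. In males, that setting leaves 1 M+Z+ embryo, and the calls of Peg3 (log2 0.73) and Usp29 (log2 1.03) were lost there too. With all embryos, the 4 genes were called in each sex, against a background of 0.563% of 16871 tested genes in females and 0.39% of 16664 in males. The CPM of M-Z- and M+Z+ embryos did not overlap for any of the 4 genes in either sex, which was so for 4.29% of the tested genes in females and 10.8% in males. In RNA from whole embryos, fewer cells of a type and less RNA per cell cannot be told apart.

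Peg3 had 828 to 936 CPM in the 6 female M+Z+ embryos, with a median of 874. The 4 female M-Z- embryos had 1482, 1728, 1606 and 1492 CPM. All 4 thus lay far above the highest M+Z+ female. The increase was 1.79-fold (log2 fold change 0.84 ± 0.0743 SE, adjusted p = 1.55e-06). Male M+Z+ embryos had 863, 865, 812 and 912 CPM, and male M-Z- embryos had 1611, 1277 and 1490.5 CPM. Male M-Z- embryo 2 was the lowest mutant but still above every M+Z+ male. The increase in males was 1.73-fold (log2 0.79 ± 0.0852, adjusted p = 2.94e-04).

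Usp29 stood at 51.6 to 62.2 CPM in female M+Z+ embryos, with a median of 54.7. Female M-Z- embryos had 102, 119, 116 and 111 CPM. The lowest mutant female was well above the highest M+Z+ female, and the increase was 2.0-fold (log2 1.00 ± 0.0699, adjusted p = 9.70e-08). Male M+Z+ embryos had 53.2, 54.6, 49.1 and 50.1 CPM. Male M-Z- embryos had 100.1, 103 and 90.4 CPM. The groups again did not overlap, with an increase of 1.95-fold (log2 0.96 ± 0.0858, adjusted p = 5.89e-05). Per 100 counts of Peg3, Usp29 had 6.11 to 6.86 counts in female M+Z+ and 6.88 to 7.47 in female M-Z- embryos. In males, the same ratio was 5.49 to 6.31 in M+Z+ and 6.06 to 8.06 in M-Z- embryos. The ranges did not overlap in females and did in males, and no test was run on the ratio.

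Peg3os, the antisense transcript, had 1.57 to 4.11 CPM in female M+Z+ embryos, with a median of 2.88. The female M-Z- embryos had 6.90, 7.99, 5.65 and 4.85 CPM. The lowest of them was close to the highest M+Z+ female. The increase was 2.17-fold (log2 1.12 ± 0.222, adjusted p = 0.0178). Male M+Z+ embryos had 1.87, 1.78, 1.28 and 5.13 CPM, and male M-Z- embryos had 7.68, 7.46 and 8.59 CPM. Male M+Z+ embryo 4 stood apart from the other M+Z+ males. The increase in males was 3.25-fold (log2 1.70 ± 0.333, adjusted p = 0.0461). Both calls were lost on leaving out single embryos. In females, the adjusted p was 0.0511 without M-Z- embryo 1 and 0.0867 without M-Z- embryo 2. In males, it was above 0.05 on leaving out any of 8 embryos of the 10, up to 0.192 without M+Z+ embryo 2. Against M+Z+ embryos 4 and above only, the log2 fold change in females was 0.81 and was not called (adjusted p = 0.0895). In males, that setting leaves M+Z+ embryo 4 alone. The male log2 fold change against it was 0.68 and was not called either. In addition, reads of Peg3os and stray reads of Peg3 counted on the opposite strand cannot be told apart, as described with the antisense ratios further on.

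Zim1 was the only one of the 4 genes to fall. Female M+Z+ embryos had 88.8 to 122 CPM, with a median of 117. The 4 female M-Z- embryos had 16.4, 1.42, 11.9 and 2.18 CPM. They split into a pair with over 10 CPM (embryos 1 and 3) and a pair with under 3 CPM (embryos 2 and 4). The fold decrease, 14.1-fold (log2 -3.82 ± 0.360, adjusted p = 3.34e-06), depended on which of them were counted: the log2 fold change was -4.49 without M-Z- embryo 1 and -3.48 without M-Z- embryo 2. Male M+Z+ embryos had 82.9, 92.3, 94.0 and 132 CPM. Male M-Z- embryos had 9.95, 3.06 and 7.55 CPM. No mutant came near the lowest M+Z+ male, and the decrease was 14.3-fold (log2 -3.84 ± 0.253, adjusted p = 7.90e-06). Per 100 counts of Peg3, Zim1 went from 10.2 to 14.3 counts in female M+Z+ embryos to 0.0821 to 1.11 in female M-Z- embryos, and from 9.60 to 14.5 to 0.239 to 0.618 in males.

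Scaled by exon length (TPM, which sums to 1000000 over all genes of an embryo), the mean level in female M+Z+ embryos was 293 ± 24 for Peg3, 71.1 ± 9.35 for Zim1, 8.42 ± 0.963 for Usp29 and 7.49 ± 2.63 for Peg3os (SD, n = 6). Usp29 and Peg3os overlapped in range, so that their order is not fixed. In female M-Z- embryos, the levels were 529.8 ± 49.0 for Peg3, 17 ± 1.32 for Usp29, 16.4 ± 3.88 for Peg3os and 5.09 ± 4.73 for Zim1 (n = 4). Zim1 thus went from second to last in this order. Male M-Z- embryos had 458 ± 74.1 TPM of Peg3, 19 ± 1.77 of Peg3os, 13.8 ± 1.06 of Usp29 and 4.12 ± 2.25 of Zim1 (n = 3), and here the ranges of Peg3os and Usp29 did not overlap.

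**Figure D1:**
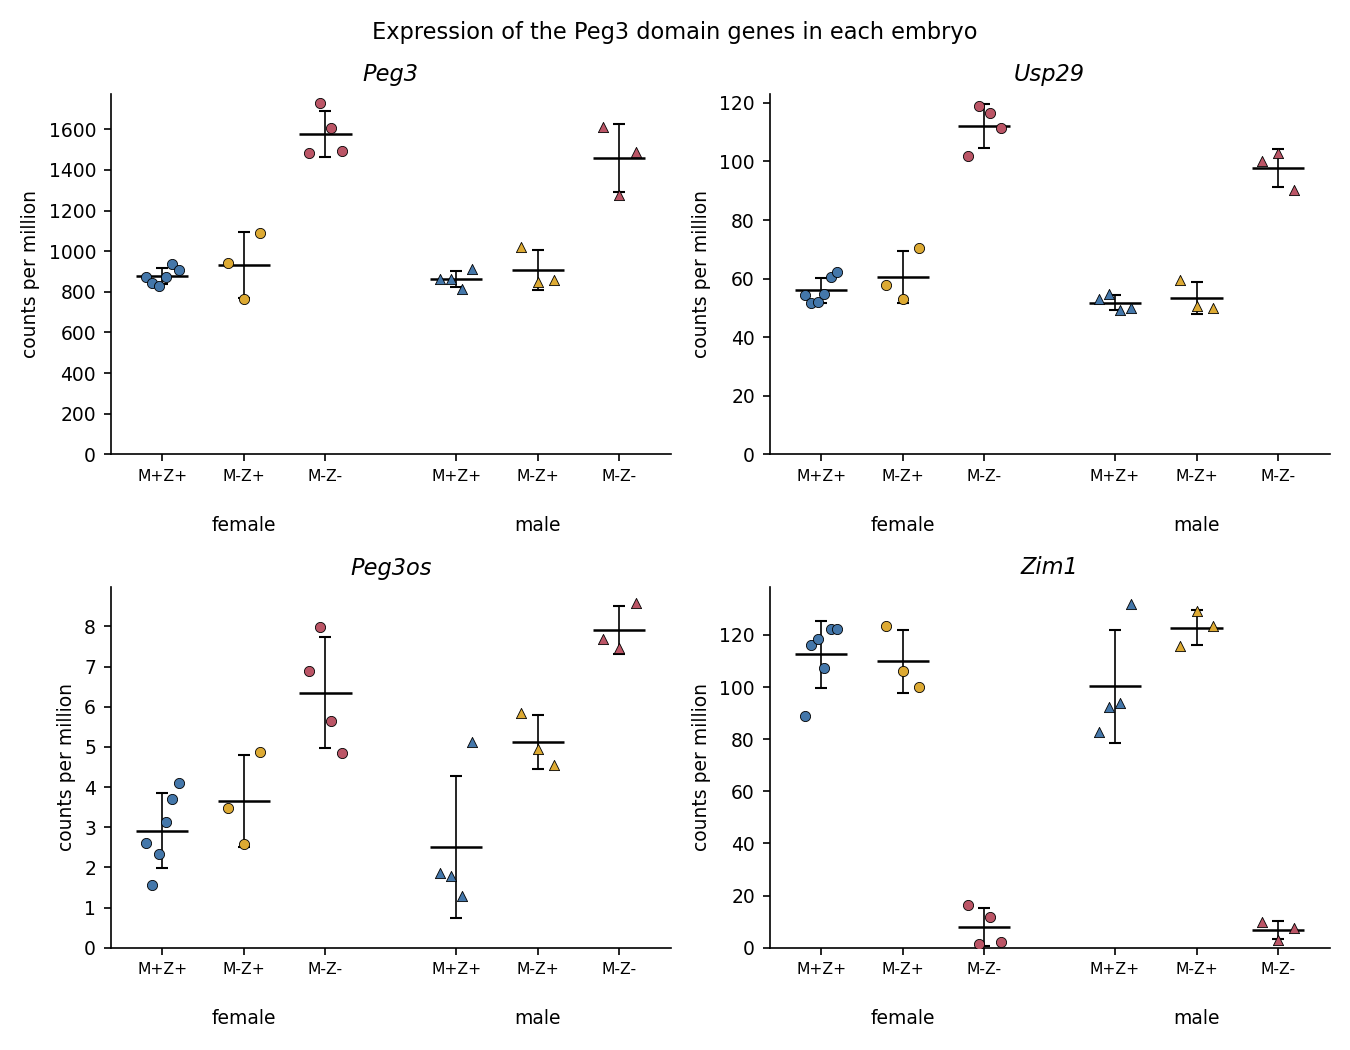
CPM of each of the 4 genes (vertical axis) in each embryo, by genotype and sex (circles, female; triangles, male); lines and bars are the mean ± SD. Within each sex, M-Z- embryos lie above M+Z+ embryos for Peg3, Usp29 and Peg3os and below them for Zim1. For Zim1, M+Z+ females had 88.8 to 122 and M-Z- females 1.42 to 16.4 CPM.

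Loss of maternal Zfp57 alone moved none of the 4 genes past the threshold. In M-Z+ against M+Z+ embryos, 0 of 4 were called in each sex by edgeR and by DESeq2, against 0.0593% of tested genes in females and 0.048% in males. At an unadjusted p below 0.05 in edgeR's test across all genes there were 0 in females and 1, Peg3os, in males, against 6.64% and 7.86% of tested genes. The 3 female M-Z+ embryos had 943, 762 and 1091 CPM of Peg3 and 58.0, 53.0 and 70.3 CPM of Usp29. In the 3 male M-Z+ embryos, Peg3 had 1022, 847 and 856 CPM and Usp29 59.7, 50.8 and 49.9 CPM. These ranges overlapped those of M+Z+ embryos of the same sex. Zim1 had 123, 106 and 100.2 CPM in the females and 116, 129 and 123 CPM in the males, all inside or near the M+Z+ range. Peg3os had 3.48, 2.59 and 4.86 CPM in the females. In the males it had 5.85, 4.95 and 4.54 CPM, which is above 3 of the 4 M+Z+ males but not above M+Z+ embryo 4 in every case. Its log2 fold change in males was 1.01 ± 0.344 (adjusted p = 0.606), and without M+Z+ embryo 4 it was 1.60 (adjusted p = 0.00853). Against M+Z+ embryo 4 alone, a choice made after the antisense ratios given further on were seen, it was -0.00467 (adjusted p = 0.99998), and against female M+Z+ embryos 4 and above it was -4.98e-05 in females (adjusted p = 0.99985).

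The contribution of the embryo's own Zfp57 was read from M-Z- against M-Z+ embryos, a comparison that shares the M-Z- embryos with the first comparison and the M-Z+ embryos with the second. In each sex 3 of the 4 genes were called, against 0.196% of tested genes in females and 0.15% in males. Peg3 was higher in M-Z- embryos by 0.77 (log2, adjusted p = 1.60e-04) in females and by 0.74 (adjusted p = 0.00211) in males. Usp29 was higher by 0.90 (adjusted p = 1.37e-05) and 0.94 (adjusted p = 4.04e-04), respectively. Zim1 was lower, with log2 fold changes of -3.78 (adjusted p = 3.06e-05) and -4.12 (adjusted p = 6.68e-06). For Peg3os the log2 fold change was 0.81 in females and 0.69 in males and was not called (adjusted p = 0.324 and 0.544). The male Peg3 call did not hold when the M+Z+ embryos were left out of the fit (log2 0.74, adjusted p = 0.0813).

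None of the 4 genes was shown to respond differently in the sexes. In the fit of all 23 embryos, 0 of 4 differed between female and male M+Z+ embryos (background 0.0817%) and 0 of 4 had a sex by genotype interaction, by edgeR and by DESeq2, and 0 reached an unadjusted p below 0.05. The background of the interaction was 0% of 17139 genes by either tool, with 1107 genes at an unadjusted p below 0.05 in edgeR. The difference between the sexes in the M-Z- effect was 0.06 ± 0.117 on the log2 scale for Peg3, 0.05 ± 0.115 for Usp29, -0.58 ± 0.416 for Peg3os and 0.03 ± 0.542 for Zim1 (female minus male, SE). The errors of Peg3os and Zim1 were several times those of Peg3 and Usp29.

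Reads over strain variants showed which parental allele each transcript came from. Usp29 had 143 to 421 allele reads per embryo and Zim1 5 to 406. Peg3 had at most 4 per embryo and 13 in all 23 embryos, and Peg3os had 0, so neither could be read by allele. The P-score is the paternal share of the allele reads minus 0.5, computed above 10 allele reads: 0.5 stands for paternal reads alone, -0.5 for maternal reads alone.

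Usp29 was almost wholly paternal in M+Z+ embryos and was read from both alleles in M-Z- embryos. The 6 female M+Z+ embryos had P-scores of 0.456 to 0.474, with a median of 0.471, and 39 of their 1217 allele reads were maternal (3.20%, exact binomial 95% CI 2.29 to 4.35). The 4 female M-Z- embryos had 212 paternal and 156 maternal reads, 172 and 187, 201 and 156, and 186 and 235, or P-scores of 0.0761, -0.0209, 0.0630 and -0.0582. The embryos leaned to either side of 0, and 48.8% of their reads together were maternal (95% CI 46.2 to 51.3). Both pooled intervals take in counting error alone and leave out the spread between embryos. The maternal shares of the 4 M-Z- females, 42.4, 52.1, 43.7 and 55.8%, all lay outside the M-Z- interval. Mean P-scores were 0.468 ± 0.00733 in M+Z+ (SD, n = 6) and 0.0150 ± 0.0650 in M-Z- females (n = 4), a difference of -0.453 (exact two-sided permutation test, p = 0.00952, the smallest this design allows). In M+Z+ females, 2 header names each covered 2 of these values. With each name taken as 1 sample, the difference was -0.453 (exact two-sided permutation test, p = 0.0286).

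In the 4 male M+Z+ embryos, the P-scores of Usp29 were 0.463, 0.489, 0.476 and 0.455, and 2.99% of the reads were maternal. Male M-Z- embryos had 114 paternal and 142 maternal reads, 145 and 149, and 122 and 106, or P-scores of -0.0547, -0.00680 and 0.0351. Again no mutant came near the M+Z+ range. The difference in mean was -0.479 (exact two-sided permutation test, p = 0.0571, the smallest that 4 against 3 embryos allow). Over the 3 genotypes, the exact permutation Kruskal-Wallis test gave p = 0.00566 in females and p = 0.00429 in males. In edgeR's fit of allele reads over all genes, the shift of Usp29 was called in both sexes (adjusted p = 1.94e-06 and 8.06e-09), against 0.402% of 6468 genes in females and 2.54% of 6423 in males. The P-scores of female and male M-Z- embryos differed by 0.0238 (exact permutation test, p = 0.629), and the sex by genotype interaction was 0.0266 (p = 0.524, exact permutation of the sexes within genotype).

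The gain was on the maternal allele. Per 1000000 allele reads, maternal Usp29 reads went from 1.46 to 2.84 in female M+Z+ embryos to 48.4, 64.5, 60.5 and 75.8 in female M-Z- embryos. Paternal reads stood at 54.9 to 86.9 in M+Z+ and at 59.4 to 78.0 in M-Z- females, which overlap throughout. Maternal output rose 26.1-fold (log2 4.70 ± 0.370, adjusted p = 1.47e-08; background 0.464% of genes), while paternal output was not called (log2 -0.11 ± 0.11, adjusted p = 0.819; background 0.0928%). In males, maternal reads went from 0.738 to 2.54 per 1000000 in M+Z+ embryos to 57.7, 60.2 and 41.0 in M-Z- embryos. Maternal output rose 27.4-fold (log2 4.78 ± 0.362, adjusted p = 7.28e-08; background 2.91%). Paternal output in males was not called (log2 -0.27 ± 0.146, adjusted p = 0.466; background 2.55%).

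Zim1 stayed mostly maternal where it could be read, and its maternal output fell. In female M+Z+ embryos, 41 of 2143 allele reads were paternal (1.91%), with 1 to 14 per embryo, and the P-scores were -0.497 to -0.463 with a median of -0.482. The 4 female M-Z- embryos had 5 paternal and 64 maternal reads, 1 and 4, 2 and 31, and 3 and 3. Only embryos 1 and 3 had over 10, with P-scores of -0.428 and -0.439. Male M-Z- embryos had 2 paternal and 26 maternal reads, 0 and 6, and 3 and 22, so that only embryos 1 and 3 had a P-score (-0.429 and -0.38). With 2 embryos left in each sex, no permutation test of the P-score was run, and edgeR's shift of Zim1 was not called (adjusted p = 0.815 in females and 0.713 in males).

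Over all reads of the group, the paternal share of Zim1 in M-Z- embryos was 11 of 113 reads in females (9.73%, exact 95% CI 4.96 to 16.8) and 5 of 59 in males (8.47%, 2.81 to 18.7), beside 1.91% and 1.58% in M+Z+ embryos. Such intervals take in counting error alone. They leave out the spread between embryos, and several reads can stem from 1 molecule. The higher share came with no more paternal reads. Paternal output was 0.345 to 1.55 reads per 1000000 allele reads in female M-Z- and 0.342 to 4.83 in female M+Z+ embryos, and was called in neither sex (log2 -1.38 ± 0.698 and adjusted p = 0.516 in females, log2 -1.43 ± 1.02 and adjusted p = 0.603 in males). Maternal output went from 106 to 138 reads per 1000000 in female M+Z+ embryos to 19.9, 1.38, 12.0 and 0.968 in the M-Z- females. It fell 14.7-fold in females (log2 -3.88 ± 0.334, adjusted p = 6.64e-08) and 15.9-fold in males (log2 -3.99 ± 0.253, adjusted p = 6.04e-09).

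**Figure D2:**
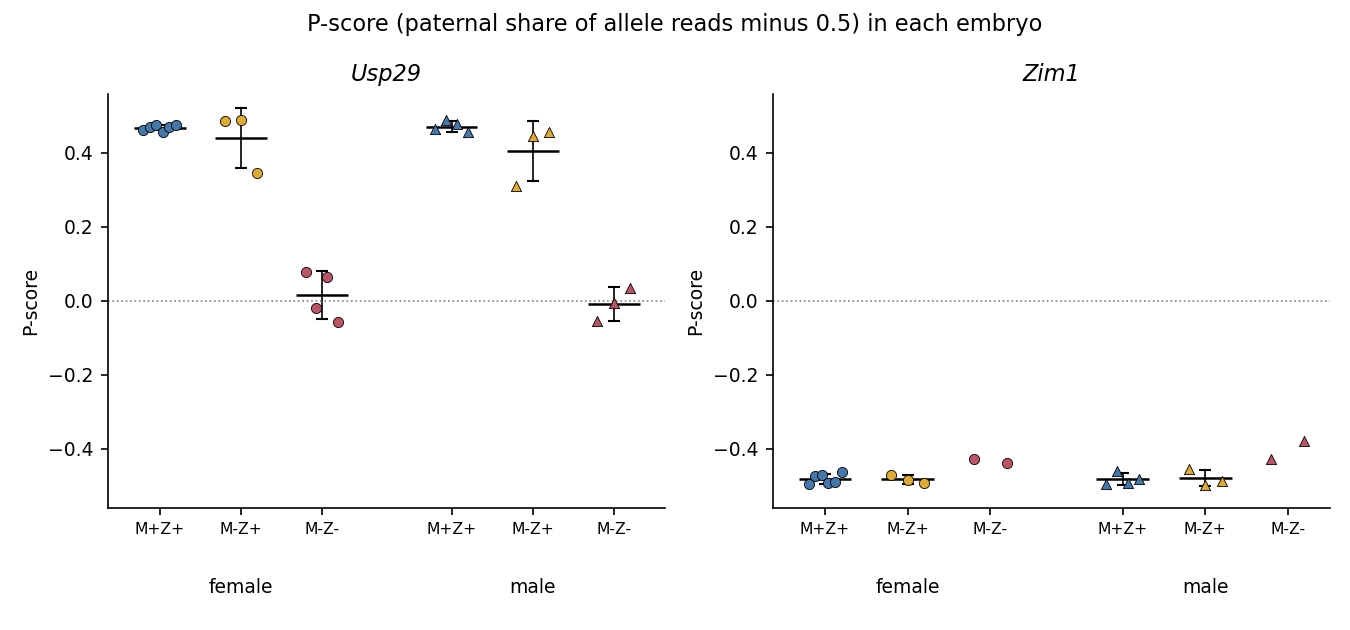
P-score (paternal share of allele reads minus 0.5) of Usp29 and Zim1 in each embryo with more than 10 allele reads, by genotype and sex (circles, female; triangles, male); lines and bars are the mean ± SD where at least 3 embryos have a value. Usp29 goes from about the paternal end in M+Z+ embryos to the dotted line of equal alleles in M-Z- embryos, and 1 M-Z+ embryo of each sex sits apart at 0.345 (female) and 0.311 (male).

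**Figure D3:**
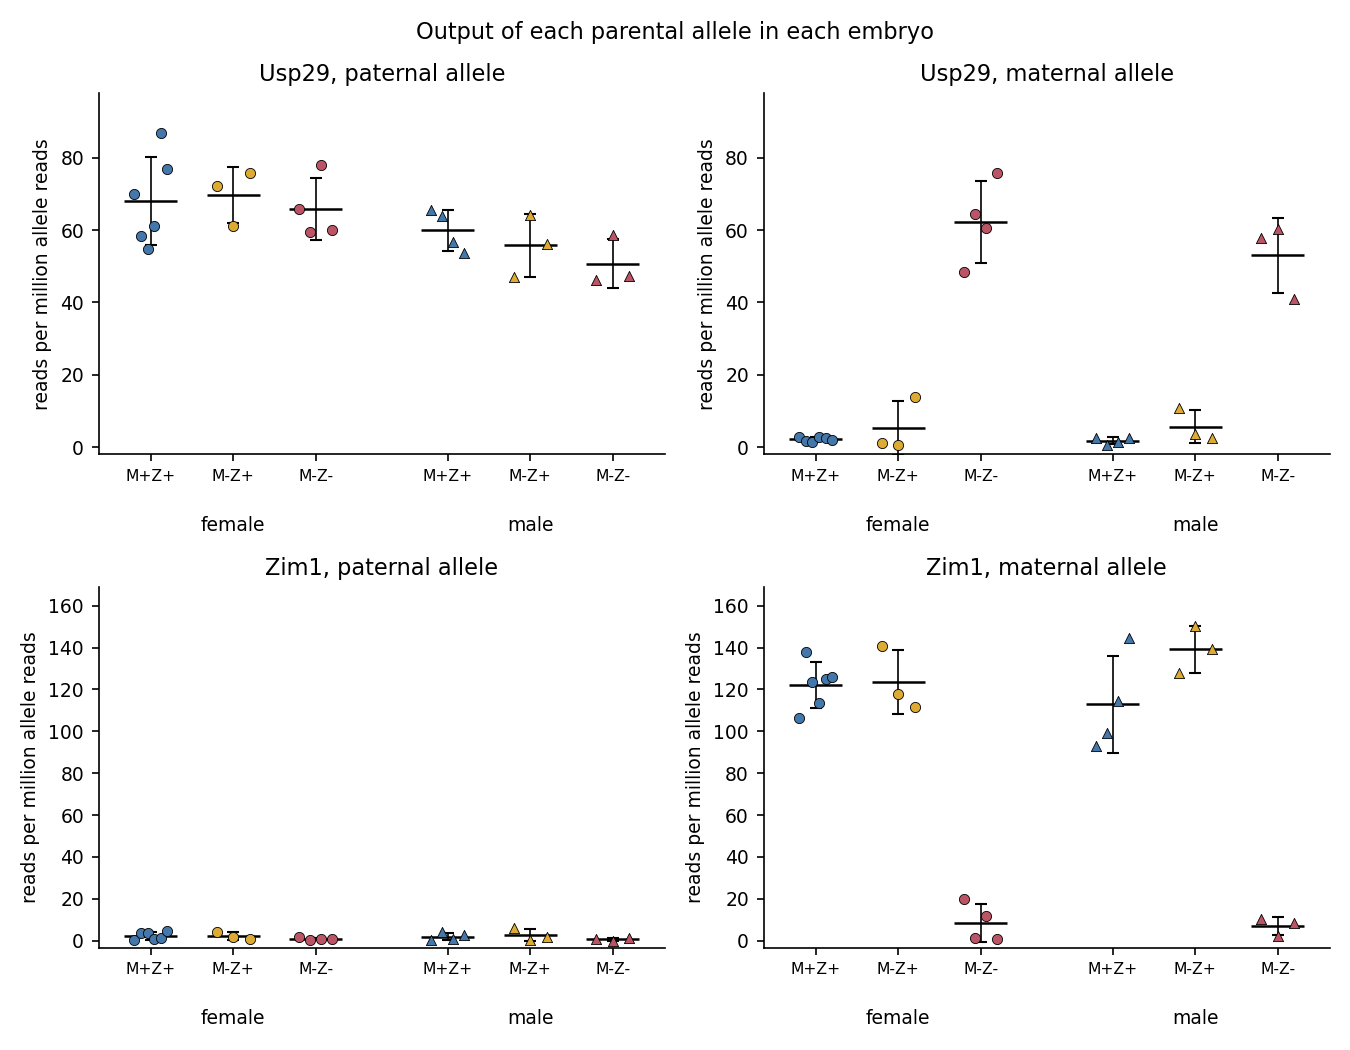
Paternal and maternal reads of Usp29 and Zim1 per 1000000 allele reads in each embryo, by genotype and sex (circles, female; triangles, male), with the mean ± SD. Maternal Usp29 reads go from 0.738 to 2.84 in M+Z+ to 41.0 to 75.8 in M-Z- embryos at overlapping paternal output, and maternal Zim1 reads go from 93.0 or more to at most 19.9.

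M-Z+ embryos varied among themselves at Usp29. The 3 female M-Z+ embryos had 200 paternal and 3 maternal reads, 170 and 2, and 212 and 39. Maternal reads were thus 1.48% (exact 95% CI 0.306 to 4.26) and 1.16% (0.141 to 4.14) in embryos 1 and 2 but 15.5% (11.3 to 20.6) in embryo 3. The 3 male M-Z+ embryos had 116 paternal and 27 maternal reads, 158 and 9, and 154 and 7. Here embryo 1 stood apart, with 18.9% maternal reads (12.8 to 26.3) beside 5.39% (2.49 to 9.98) and 4.35% (1.77 to 8.75).

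As groups, M-Z+ and M+Z+ embryos were not shown to differ at Usp29. The difference in P-score was -0.0284 in females (exact two-sided permutation test, p = 0.667) and -0.0660 in males (p = 0.114, where 0.0571 is the smallest p this design allows). Without female M-Z+ embryo 3, the female difference was 0.0190, and without male M-Z+ embryo 1, the male difference was -0.0193. Female M-Z- and M-Z+ embryos differed by -0.424 and male ones by -0.413 (exact permutation tests, p = 0.0571 and 0.1, each the smallest the design allows). For Zim1, M-Z+ embryos differed from M+Z+ embryos by -0.00134 in females and 0.00333 in males (exact permutation tests, p = 1 and 0.857).

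The same 2 embryos, female M-Z+ 3 and male M-Z+ 1, also had the highest Peg3, Usp29 and Peg3os of the 3 M-Z+ embryos of their sex and the lowest Zim1. Their Peg3 levels, 1091 and 1022 CPM, were above every M+Z+ embryo of the same sex. Their Zim1 levels, 100.2 and 116 CPM, were within the range of M+Z+ embryos. They were singled out after their values were seen, and no test was run on them.

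**Figure D4:**
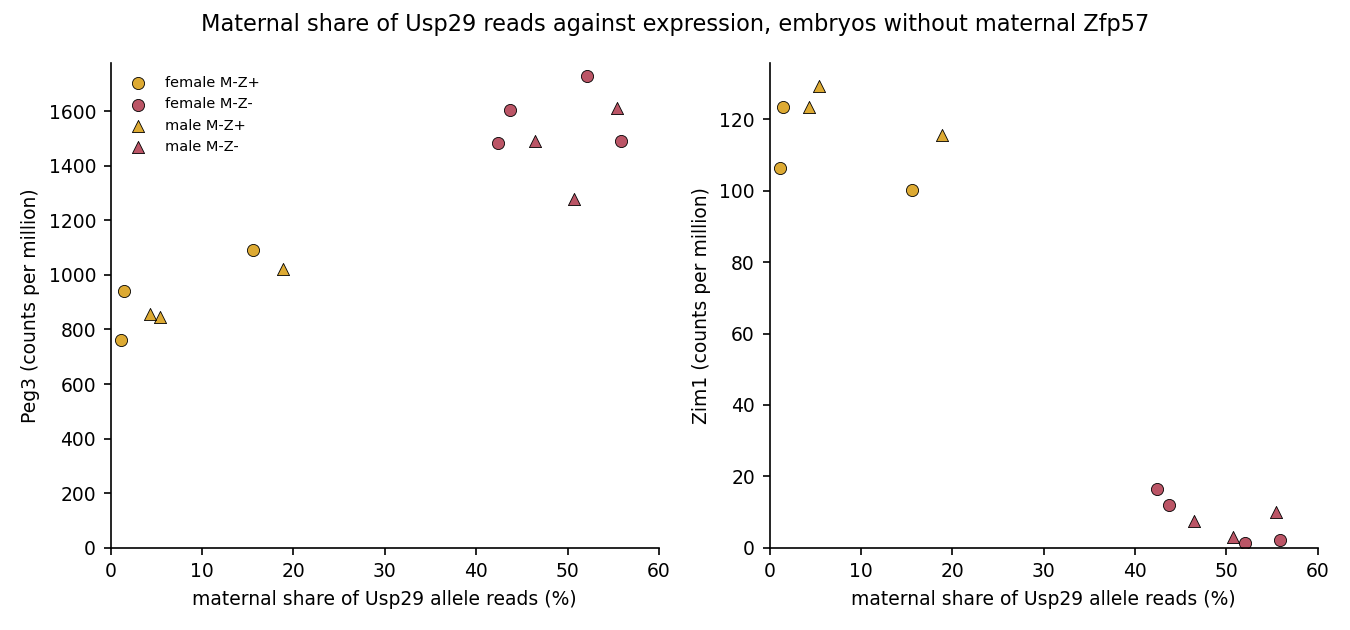
CPM of Peg3 (left) and Zim1 (right) against the maternal share of Usp29 allele reads, in percent, in the 13 embryos without maternal Zfp57, by sex and genotype. M-Z+ embryos lie at 1.16 to 18.9% and M-Z- embryos at 42.4 to 55.8%, and the groups separate on both axes.

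Among M-Z- embryos and among M+Z+ embryos, those with more Peg3 were not shown to have less Zim1; the relation was not run in M-Z+ embryos. In the 7 M-Z- embryos of both sexes, Pearson's r of log2 CPM was -0.02 (exact permutation p = 0.965) and Spearman's rho -0.29 (exact permutation p = 0.556), and r was 0.32 without the 2 embryos farthest from the median of Peg3. The sexes had opposite signs here, with r of -0.48 over the 4 females and 0.99 over the 3 males, too few for a test. In the 10 M+Z+ embryos, r was 0.44 (permutation p = 0.197) and rho 0.47 (permutation p = 0.179), with r = 0.25 without the 2 farthest, 0.17 over the females and 0.65 over the males. Zim1 against the P-score of Usp29 in the 7 M-Z- embryos gave r = 0.65 (exact permutation p = 0.121, adjusted 0.296 over the 3 relations) and rho = 0.71 (exact permutation p = 0.0881, adjusted 0.264), and r was 0.19 without the 2 farthest. Within sexes, this r was 0.93 over the 4 females and -0.26 over the 3 males.

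Over all 23 embryos, the levels of Peg3 and Usp29 were correlated at r = 0.97 on the log2(CPM + 1) scale, and those of Zim1 with them at -0.90 and -0.93. These and the next values describe samples that share the 3 genotypes, and carry no test. Of the genes with at least 1 CPM outside the domain, those most like Peg3 were Ddc (r = 0.94), Inpp5f (0.94) and Plagl1 (0.93), and those most like Usp29 were Inpp5f (0.96), Mest (0.95) and Ddc (0.94). Plagl1 (a zinc finger gene) and Mest are imprinted genes expressed from the paternal allele. Those most like Zim1 were Blcap (0.96), Dlk1 (0.95) and Klhdc10 (0.94), and those most like Peg3os were Hic1 (0.92), Adgra2 (0.91) and Mfap4 (0.87). The authors count Ddc, Inpp5f, Blcap and Dlk1 among the imprinted genes too.

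No tested neighbour of Peg3 was called, but calls were rare among all genes too. Of the 22 other gene rows whose start lies within 500 kb of that of Peg3, 10 had enough counts for a test. Between M-Z- and M+Z+ embryos, 0 of the 10 passed in either sex by edgeR or by DESeq2. The edgeR background was 0.563% of all tested genes for females and 0.39% for males. At such shares, 0 of 10 cannot set the neighbours apart from other genes. In edgeR's test, 0 neighbours had an unadjusted p below 0.05 in females, against 15.5% of all tested genes. In males there were 2, Zfp954 and Zim3, near the 17% of all tested genes. The log2 fold changes of the 10 were -0.11 to 0.41 in females (median 0.01) and -0.46 to 1.28 in males (median -0.17). The highest value in each sex was that of Zim3, which had under 1 CPM and lies on the strand opposite to Usp29, overlapping it. Of the 3 neighbours with enough allele reads for a P-score, Zfp954 had mean P-scores of 0.0324 in female M+Z+ and 0.0495 in female M-Z- embryos, and 0.0307 and 0.0652 in males. Zfp418 had -0.0787 and -0.142 in females and 0.0657 in male M+Z+ embryos, with -0.0833 in the 1 male M-Z- embryo that had enough reads. Zfp772 was almost wholly of the paternal strain in M+Z+ and M-Z- females (0.455 and 0.447) and males (0.466 and 0.452).

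Genes linked to the domain by function were taken from lists. Of 12 reported partners of the PEG3 and USP29 proteins, among them Siah1a, Bax, Traf2 and Trp53, 0 were called in M-Z- embryos of either sex by edgeR or DESeq2, with 1 in each sex at an unadjusted p below 0.05 (15.5% and 17% of all tested genes), and the median log2 fold change was 0.05 in females and -0.01 in males (median of all genes -0.00 and 0.00). Of 14 genes of the imprinted gene network, 5 were higher and 2 lower in female M-Z- embryos, and 5 were higher and 1 lower in males, where 0.563% and 0.39% of all tested genes were called. The largest in females were the growth regulator Dlk1 (log2 -2.46), the noncoding RNA Meg3 (1.05), Magel2 (1.04) and Plagl1 (1.00). In males they were Dlk1 (-2.43), Meg3 (1.36), Plagl1 (1.10) and Magel2 (1.08). Most genes of this list are imprinted themselves, and Dlk1 and Meg3 are neighbours. In M-Z+ embryos, Ndn and Magel2 alone were called, higher in both sexes, against 0.0593% of all tested genes in females and 0.048% in males. Among the imprint maintenance factors (9 listed, 7 tested in females and 8 in males), Zfp57 alone was called between M-Z- and M+Z+ embryos, in both sexes (0.563% and 0.39% of all tested genes), and 0 between M-Z+ and M+Z+ embryos by edgeR or DESeq2 (0.0593% and 0.048%). At an unadjusted p below 0.05 there were 1, Zfp445, in female and 0 in male M-Z+ embryos, against 6.64% and 7.86% of all tested genes.

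The counts of Peg3os came with a difference among the M+Z+ embryos themselves. Per 100 counts of Peg3, M+Z+ embryos 1 to 3 had 0.186 to 0.299 counts of Peg3os in females and 0.158 to 0.217 in males, while all other embryos had 0.325 to 0.466 in females and 0.477 to 0.585 in males. The same 3 females had 0.140 to 0.146 counts of Tsix per 100 counts of Xist, the other antisense pair examined, and the other 10 females 0.256 to 0.445. Female M+Z+ embryos 1 to 3 thus had the lowest ratios at both antisense pairs. Male M+Z+ embryos 1 to 3 had the lowest at Peg3os, the pair read in males. The authors name their M+Z+ embryos F1' to F3' and F1 to F3 in females, and M1' to M3' and M1 in males. No M-Z+ or M-Z- embryo has a primed name. Which M+Z+ embryos here are the primed ones is not given in the labels, and the part of the libraries in this was not tested. Since the kit named in the labels is not known to mark strand while reads were counted by strand, a low level of Peg3os RNA and a small share of Peg3 reads counted on the opposite strand cannot be told apart.

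With M+Z+ embryos 4 and above only, an alternative chosen after these ratios were seen, the Peg3os call in M-Z- embryos was lost in both sexes, as given above. Peg3, Usp29 and Zim1 were still called in females. In males, where 1 M+Z+ embryo remains, Zim1 was called, and Peg3 (0.73, adjusted p = 0.643) and Usp29 (1.03, adjusted p = 0.147) were not called. Zfp57 itself was not called there either (log2 -1.14, adjusted p = 0.0869).

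**Figure D5:**
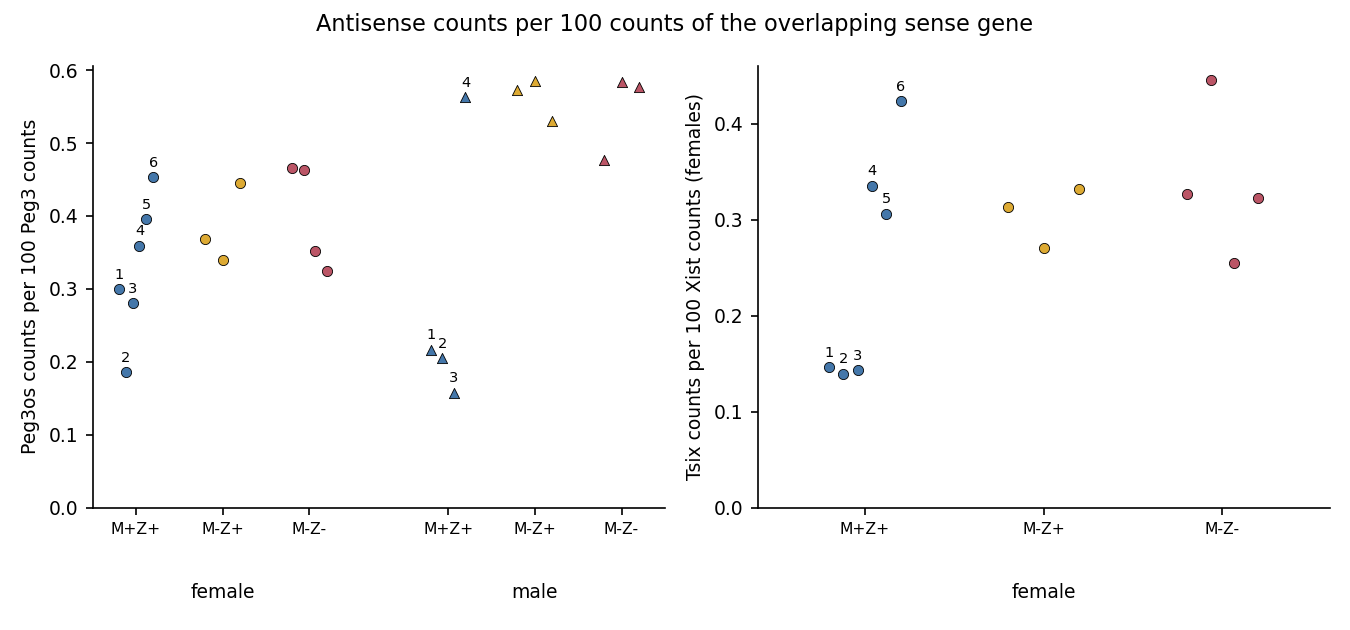
Counts of the antisense gene per 100 counts of the gene it overlaps, in each embryo, by genotype and sex: Peg3os over Peg3 (left; circles, female; triangles, male) and Tsix over Xist (right; females only), with the numbers of the M+Z+ embryos beside their points. M+Z+ embryos 1 to 3 have the lowest ratios of their sex in both panels.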

How the data were processed

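RNA was extracted from whole E13.5 mouse embryos, 1 library per embryo, 23 in all; litters are not given in the labels. In the deposited gene tables the values were raw counts, for which the authors trimmed reads with Trim_Galore, kept uniquely mapped, end-to-end alignments to mm9 by STAR (2.7.8a, per the submitters' processing notes) and counted by strand with featureCounts (Subread 2.0.1), with reads over several genes counted for each. The deposited allelic tables held read counts per parental allele, made by the authors with variants from GATK, alignment to a masked mm9 and SNPsplit. Deposited exon lengths in bases, the other value used, served for TPM. Nothing had been normalised.

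Counts were divided by each embryo's total for CPM. Within each sex, the genotypes were tested with edgeR 4.0.16 (glmQLFit, glmQLFTest, TMM, filterByExpr, limma 3.58.1, R 4.3.3), 3 genotypes in 1 fit, and the sexes in 1 fit of all 23. Calls required an adjusted p below 0.05 and a log2 fold change of 0.5 (0.3 between the sexes, none for the interaction). Allele fits took in genes averaging 20 allele reads or more, with embryo effects for the shift, which also had to reach 0.1 in P-score. P-scores, from over 10 allele reads, were compared by unadjusted exact permutation tests (two-sided, doubled smaller tail). Alternatives were DESeq2 1.42.0, other scaling, filters and samples in the fit, a replicate block and leaving out each embryo. On simulated data for M-Z- against M+Z+ embryos, 2-fold changes (log2 of 1) were recovered for 91% of changed genes in females (16871 genes) and 74% in males (16664 genes). In simulated allele reads, 2-fold changes in the output of 1 allele were recovered for 66% in females and 55% in males. P-score shifts of 0.15 were recovered for 60% and 39%, and shifts of 0.3 for 98% and 94%. Intervals are exact Clopper-Pearson at 95%.

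Columns headed WT were read as M+Z+. In the female allelic table, 2 header names stood on 2 columns each, so these 4 columns were used as M+Z+ embryos and not joined to the gene table; the columns under 1 name differed by more than counting noise (mean chi-square per gene 9.03 and 2.76). Same-sex replicates also differed by more than counting noise (2.27 to 47.7 over 36 pairs). The highest values were those of male M-Z- embryo 2 with embryos 1 and 3 (36.6 and 47.7). The next was 21.2, in female M+Z+ embryos. Motifs were read from NCBIM37 (mm9) at the start of each gene, from 250 bases before to 50 after it. The genes named were the 4 of the domain, Zfp57, neighbours within 500 kb that were called or had over 10 allele reads, called genes of each list (at most 4) and the 3 genes most like each member; others were named after their values were seen. The domain's genes and all lists were chosen with earlier results of these data known.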

Additional observations from a re-analysis of the deposited data

Results flagged for a closer look

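Peg3os in the male M+Z+ group held 1 embryo far from the others: embryo 4 had 5.13 CPM, while the other 3 had 1.28 to 1.87 CPM. Per 100 counts of Peg3, the same embryo had 0.563 counts of Peg3os and the other 3 had 0.158 to 0.217. The gap to the nearest embryo was 0.847 and 0.854 of the range of the group, above Dixon's critical value of 0.829. Of 23 groups of values checked, these 2 had such an embryo, and chance gives about 1 in 20. The 2 share their Peg3os counts and are not independent. The male M-Z+ and M-Z- embryos had 4.54 to 8.59 CPM of Peg3os, so that embryo 4 lay within their range. By the ratio, M+Z+ males 1 to 3 were the ones apart from the rest: the other 7 males of all genotypes, embryo 4 among them, had 0.477 to 0.585.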

How the results depend on the processing

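Of 324 recomputed values other than those that leave out an embryo, 290 kept their direction and side of the threshold (or stayed within 1.5 times, for counts), 8 lost a call, 1 gained one, 19 moved and 6 changed sign, all 6 in M-Z+ against M+Z+ embryos and called neither before nor after. Zim1 kept its calls in M-Z- embryos under every alternative run, and Usp29 and Peg3 did except as follows.

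With M+Z+ embryos 4 and above only, members called in M-Z- against M+Z+ embryos, both sexes together, fell from 8 to 4: Peg3os was 0.81 (log2, adjusted p = 0.0895) in females and 0.68 (0.999) in males, and in males Peg3 was 0.73 (0.643) and Usp29 1.03 (0.147), a fit in which the lone M+Z+ male is assumed to vary like the other groups. Against M-Z+ males, Peg3 was 0.74 (0.0704) there. In the same setting the sign changed in M-Z+ against M+Z+ embryos for Peg3 (-0.00428), Peg3os (-0.00467) and Zim1 (-0.10) in males and for Peg3os in females (-4.98e-05). With no scaling beyond the library size it changed in female M-Z+ embryos for paternal Usp29 output (0.03415) and maternal Zim1 output (0.0173). When the fit held the compared groups alone, Peg3 in male M-Z- against M-Z+ embryos was 0.74 (0.0813), and Peg3os in male M-Z- against M+Z+ embryos was 1.70 (0.199). The cause was not tested.

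Under the replicate block, Peg3os was 1.39 (0.0668) in female M-Z- and 1.60 (0.0175) in male M-Z+ embryos, which made 1 member called in M-Z+ embryos against 0 without it (against M+Z+ male 4 alone this change was -0.00467, 0.99998); it changed no other member's call in the genotype comparisons. Same-numbered embryos did not deviate together (correlations of -0.344 to 0.286 over 10 female pairs and -0.202 to 0.495 over 9 male pairs), so the numbers were not taken as a pairing.

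Leaving out each embryo gave a log2 fold change of Peg3os of 0.98 to 1.23 in female M-Z-, 1.49 to 2.28 in male M-Z- and 0.81 to 1.60 in male M-Z+ embryos. In M-Z+ against M+Z+ embryos the sign of other uncalled values depended on 1 embryo, mostly female M-Z+ 3 or male M-Z+ 1: Peg3 was -0.04995 to 0.20 in females and -0.0337 to 0.0998 in males, Usp29 -0.0210 to 0.18 and -0.0552 to 0.0708, and Zim1 -0.14 to 0.0215 in females. The P-score difference was -0.0529 to 0.0190 for Usp29 in females, and for Zim1 -0.00772 to 0.00402 in females and -0.00917 to 0.0121 in males. From reads summed over the group, the Zim1 P-score of female M-Z- embryos exceeded that of M+Z+ by 0.0782, against 0.0481 from embryo means.

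Counts over all genes moved more. Female M-Z- against M+Z+ had 95 calls, and 212 with no minimum change, 143 by DESeq2, 52 under the block and 55 without M-Z- embryo 2. Males had 65, and 99 with no filter, 182 by DESeq2, 128 under the block, 40 with the compared groups only, 3 with M+Z+ embryo 4 only, 144 without M+Z+ embryo 4, 899 without M-Z- embryo 3, 41 without M+Z+ embryo 1 or 2 and 43 without M-Z+ embryo 3. M-Z+ against M+Z+ had 10 in females (4 under the block, 3 with the compared groups only, 5 without M+Z+ embryo 6 or M-Z+ embryo 1, 6 without M+Z+ embryo 5) and 8 in males (41 under the block, 13 by DESeq2, 0 with M+Z+ embryo 4 only, 54 without M+Z+ embryo 4, 4 without M+Z+ embryo 3, 3 without M-Z+ embryo 1, and 0 without M+Z+ embryo 1 or 2 or M-Z+ embryo 2 or 3). Male M-Z- against M-Z+ had 25 (57 by DESeq2, 16 with the compared groups only or M+Z+ embryo 4 only, 376 without M-Z- embryo 3). The background shares in the text move with these counts. Depth limits Peg3os (22 to 152 counts) and allele reads of Zim1 in M-Z- embryos (5 to 69).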
